A study of Mus musculus with 10 samples.

Results

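Genes that mark mature fat cells were examined in subcutaneous (s.c.) Panc02 tumors. The 8 genes were chosen by symbol as known mature fat cell genes (Adipoq, Lep, Cfd, Plin1, Cidec, Fabp4, Car3 and Pck1), by a rule that holds no measured value, out of 37417 genes in the count table. Each symbol matched 1 Ensembl gene, and all 8 were among the 15299 genes that passed the filter on low counts and were tested.

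White fat cells store triglyceride in a single large droplet and release fatty acids when stimulated. They also secrete adipokines, hormones that report the state of the fat stores. A layer of such cells lies under the skin, where s.c. tumors are implanted, so fat cells of the host can border or enter such a tumor and be taken with it.

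Bulk RNA-seq had been performed on 10 tumors, 5 per group, from C57BL/6J mice (female by the study's methods) that the labels give as 12 weeks old and of wild type genotype. Panc02, a mouse pancreatic cancer cell line, was injected into the right flank, and tumors were collected at day 16. In both groups the injected cells were a puromycin-selected pool with doxycycline-inducible Cas9, carrying either a nontargeting guide RNA (sgNT) or one that targets Cda, which encodes the enzyme cytidine deaminase (sgCda). Only the cancer cells were edited, so fat cells in either group belong to an unedited host, and a pool may hold unedited cells. The paper's methods also describe single-cell cloning by limiting dilution, and do not state whether it applied to the cells of these tumors.

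Libraries held 28051907 to 39484964 assigned counts. Cda itself, the targeted gene, was at 10.1 to 14.7 CPM (counts scaled to library size, with TMM factors from edgeR) in sgNT tumors and at 7.47 to 12.5 CPM in sgCda tumors, and the groups overlapped (log2 fold change −0.30 ± 0.17, SE; edgeR adjusted p = 0.9996). An RNA level does not measure the edit or the protein. The paper also found Cda RNA in endothelial cells and fibroblasts sorted from such mouse tumors, so bulk Cda can include unedited host cells. Its authors checked the edit in the cell line at the RNA and protein level. In a list of 8 cancer epithelium genes, Krt8 (353 to 645 CPM) and Krt18 (157 to 325 CPM) were the most abundant. Lower were Msln at 44.11 to 95.15 CPM, Cdh1 at 14.0 to 21.6 CPM and Krt19 at 9.45 to 28.8 CPM. Epcam was at 0.911 to 3.43 CPM, Muc1 at 0.506 to 1.88 CPM and Krt7 at 0.19 to 2.42 CPM. Across all genes edgeR's quasi-likelihood test called 0 of 15299 at an adjusted p under 0.05 (0% of genes tested), 382 passed at an unadjusted p under 0.05 (2.50%), and 92 had groups that did not overlap in CPM (0.601%). DESeq2's Wald test and limma-voom also called 0 genes, with 433 and 317 at an unadjusted p under 0.05. Whether replicates came from separate mice is stated only in general terms, so p values measure the spread between these tumors.

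Upstream sequence was available for 6 of the 8 genes in the RefSeq table used here (build GRCm38.p6), and Fabp4 and Car3 had no entry. The 120 bases before the start are shown for Adipoq (chr16:23146416-23146535, plus strand), to which the other genes are compared, for Cidec (chr6:113435761-113435880, minus strand), whose level followed Adipoq most closely, and for Lep (chr6:29060100-29060219, plus strand), whose ratio to Adipoq varied most between tumors. Sequences run 5′ to 3′ and capitals mark CCAAT or TATAA on either strand.
Adipoq: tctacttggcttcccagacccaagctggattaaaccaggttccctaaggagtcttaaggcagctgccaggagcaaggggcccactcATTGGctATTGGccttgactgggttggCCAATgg
Cidec: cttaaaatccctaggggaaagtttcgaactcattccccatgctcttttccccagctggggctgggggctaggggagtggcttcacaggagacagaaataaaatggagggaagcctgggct
Lep: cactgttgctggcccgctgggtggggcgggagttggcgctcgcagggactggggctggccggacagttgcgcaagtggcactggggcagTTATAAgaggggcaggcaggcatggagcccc

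In the 250 bases before the RefSeq start, Adipoq held CCAAT 3 times, and its forward match ran from base 7 to base 3 before the start. The Lep window held TATAA from base 31 to base 27 before the start, which overlaps a reverse-strand match. These short motifs were chosen after the windows had been searched, and 33.8% and 22.8% of all 32851 promoters hold them. The motifs chosen first were the TATA box in its form TATAAA, then DR1, a form bound by PPAR with RXR in which AGGNCA stands in the same direction on both sides of 1 base, then a C/EBP core written TTGCNNCAA and the cAMP response element written TGACGTCA. None of them was matched in the 7 windows of the 6 genes, of which Cidec has 2, against 12.4%, 0.338%, 1.74% and 1.55% of all promoters. The search allowed no mismatch, so TTACGTCA in the Pck1 window, which differs by 1 base from TGACGTCA, was not counted. A match describes letters only.

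Fat cell genes were detected in every tumor, but their level differed widely between tumors of the same group. Summed over the 8 genes, sgNT tumors 1 to 5 had 254.0, 205.5, 269.6, 129.5 and 46.8 CPM, and sgCda tumors 1 to 5 had 44.1, 995.5, 186.9, 207.0 and 48.7 CPM. One sgCda tumor (replicate 2) stood far above all others, and 3 tumors (sgNT 5, sgCda 1 and sgCda 5) were low. The 8 genes together made up 0.00444% of assigned counts in sgCda 1 (95% Wilson interval 0.00422 to 0.00467) and 0.0987% in sgCda 2 (0.0977 to 0.0997), so counting error is small beside the spread between tumors. In bulk tissue, fewer fat cells and less RNA per fat cell cannot be told apart.

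**Figure D1:**
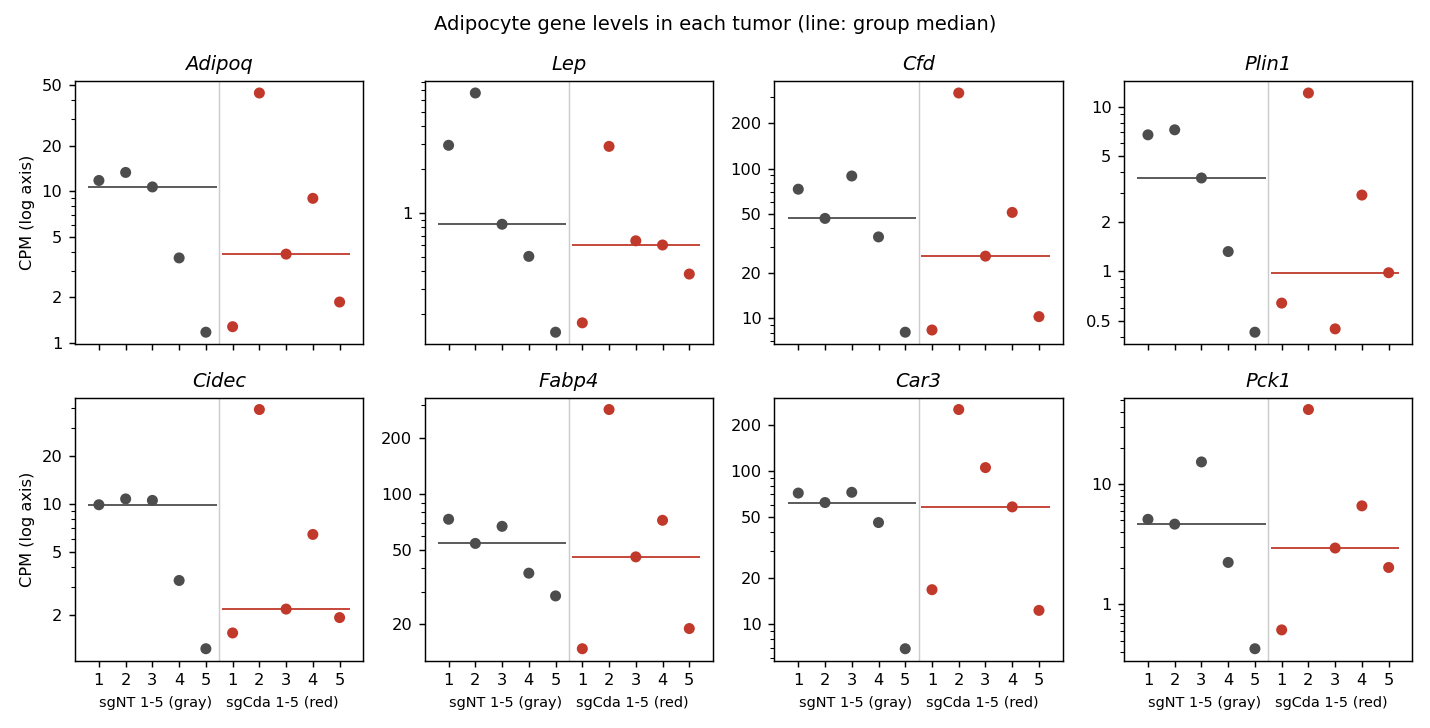
CPM (log axis) of each adipocyte gene in the 5 sgNT (gray) and 5 sgCda (red) tumors, with a line at each group median. The sgCda 2 tumor is the highest point in every panel except Lep, where sgNT 2 is highest at 6.73 CPM, and no gene separates the groups.

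Per length of transcript, as TPM (counts per base of the union of exons, scaled to the same sum in every tumor), Cfd had the highest level of the 8 genes in 9 of 10 tumors, at 26.7 to 1016 TPM. Car3 followed at 7.35 to 256.6 TPM and was the highest in the remaining tumor, sgCda 3. Fabp4 ranged from 10.2 to 186.4 TPM, a scale on which it is understated because its annotated exons merge into 1 block of 4489 bases. Adipoq ranged from 2.61 to 94.5 TPM, Cidec from 2.03 to 61.5 TPM, Pck1 from 0.381 to 35.7 TPM and Plin1 from 0.281 to 7.64 TPM. Lep was the lowest of the 8 genes in 8 of 10 tumors, at 0.137 to 6.46 TPM. The ranges of neighbors in this order overlapped.

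The adipokine genes came first. Adipoq (ENSMUSG00000022878, chr16:23146536-23158028, plus strand) encodes adiponectin, a hormone made almost exclusively by fat cells. Its level in sgNT tumors 1 to 5 was 11.8, 13.3, 10.7, 3.64 and 1.18 CPM, and in sgCda tumors 1 to 5 it was 1.28, 44.5, 3.86, 8.998 and 1.87 CPM. The sgCda group held both the highest tumor and 2 of the 3 lowest, and the groups overlapped. The mean was 8.13 ± 5.37 CPM for sgNT and 12.1 ± 18.4 CPM for sgCda (SD, 5 tumors each), which gave a log2 fold change (sgCda minus sgNT) of 0.58 ± 0.93 (SE; 95% interval −1.46 to 2.62). This difference was smaller than its error (edgeR adjusted p = 0.9996), and a two-sided exact permutation test of log2 CPM, whose smallest possible p is 0.00794, gave p = 0.889 for a difference of mean log2 CPM of −0.19, which has the opposite sign.

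Lep (ENSMUSG00000059201, chr6:29060220-29073877, plus strand) encodes leptin, which signals the size of fat stores to the brain. Its level was 2.93, 6.73, 0.837, 0.503 and 0.151 CPM in sgNT tumors 1 to 5 and 0.175, 2.88, 0.644, 0.602 and 0.380 CPM in sgCda tumors 1 to 5. Unlike for the other 7 genes, the highest tumor was sgNT 2, and sgCda 2 came after both sgNT 2 and sgNT 1. The 2 lowest libraries held 6 counts each, so the low end rests on few reads. The log2 fold change was −1.23 ± 0.95 (edgeR adjusted p = 0.9996), and the difference of mean log2 CPM was −0.79 (exact permutation p = 0.476).

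Cfd (ENSMUSG00000061780, chr10:79890853-79892655, plus strand) encodes complement factor D, or adipsin, a serine protease of the alternative complement pathway that fat cells secrete. The sgNT tumors 1 to 5 had 72.8, 46.4, 89.1, 34.9 and 8.07 CPM, and the sgCda tumors 1 to 5 had 8.34, 319.5, 25.99, 50.9 and 10.2 CPM. Again sgCda 2 was highest and sgNT 5 lowest, and the log2 fold change was 0.73 ± 0.95 (edgeR adjusted p = 0.9996), and the difference of mean log2 CPM was −0.24, of the opposite sign, (exact permutation p = 0.833).

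Plin1 and Cidec encode proteins of the lipid droplet. Plin1 (ENSMUSG00000030546, chr7:79720218-79732903, minus strand) encodes perilipin 1, which coats the droplet and controls access of lipases. Its level was 6.74, 7.23, 3.69, 1.32 and 0.427 CPM in sgNT tumors 1 to 5 and 0.642, 12.1, 0.448, 2.90 and 0.981 CPM in sgCda tumors 1 to 5. The sgCda 3 tumor, which was in the middle for Adipoq, was near the bottom for Plin1. The log2 fold change was −0.18 ± 0.94 (edgeR adjusted p = 0.9996), and the difference of mean log2 CPM was −0.64 (exact permutation p = 0.571).

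Cidec (ENSMUSG00000030278, chr6:113424634-113435760, minus strand) encodes a protein that promotes droplet fusion and so the single large droplet of white fat. It was measured at 9.85, 10.7, 10.5, 3.30 and 1.23 CPM in sgNT tumors 1 to 5 and at 1.55, 38.9, 2.18, 6.41 and 1.93 CPM in sgCda tumors 1 to 5. These values lay close to those of Adipoq in each tumor except sgCda 3, and the log2 fold change was 0.53 ± 0.92 (edgeR adjusted p = 0.9996), and the difference of mean log2 CPM was −0.29, of the opposite sign, (exact permutation p = 0.794).

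Fabp4 (ENSMUSG00000062515, chr3:10204088-10208576, minus strand) encodes the fatty acid carrier of fat cells, which is also made by capillary endothelium and some macrophages. It was at 73.5, 54.5, 67.3, 37.7 and 28.5 CPM in sgNT tumors 1 to 5 and at 14.8, 285.3, 46.1, 72.5 and 19.0 CPM in sgCda tumors 1 to 5. Its lowest tumor was sgCda 1, and its span of 19.3-fold between the lowest and highest tumors was the smallest of the 8 genes. The log2 fold change was 0.75 ± 0.70 (edgeR adjusted p = 0.9996), and the difference of mean log2 CPM was −0.020, of the opposite sign, (exact permutation p = 0.992).

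Car3 and Pck1 encode enzymes. Car3 (ENSMUSG00000027559, chr3:14863512-14872523, plus strand) encodes carbonic anhydrase 3, abundant in fat cells and in slow skeletal muscle. Its level was 71.4, 61.9, 72.2, 45.9 and 6.89 CPM in sgNT tumors 1 to 5 and 16.7, 250.6, 104.7, 58.0 and 12.2 CPM in sgCda tumors 1 to 5. The sgCda 3 tumor, with 2.18 CPM of Cidec, was second highest of all for Car3. The log2 fold change was 0.78 ± 0.79 (edgeR adjusted p = 0.9996), and the difference of mean log2 CPM was 0.32 (exact permutation p = 0.770).

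Pck1 (ENSMUSG00000027513, chr2:173153048-173159273, plus strand) encodes the cytosolic phosphoenolpyruvate carboxykinase, which in fat serves the synthesis of glycerol for triglyceride. It was at 5.09, 4.64, 15.3, 2.23 and 0.427 CPM in sgNT tumors 1 to 5 and at 0.613, 41.7, 2.94, 6.59 and 2.03 CPM in sgCda tumors 1 to 5. Its span of 97.6-fold was the widest of the 8 genes, and sgNT 3 was high beside its Adipoq level. The log2 fold change was 0.97 ± 1.06 (edgeR adjusted p = 0.9996), and the difference of mean log2 CPM was 0.30 (exact permutation p = 0.802).

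Of the 8 genes, 0 were called at an adjusted p under 0.05, beside 0% of all genes tested, and 0 passed at an unadjusted p under 0.05, beside 2.50%. None had groups that did not overlap, beside 0.601% of all genes. The fold change was above 0 for 6 of 8 genes, with a median log2 fold change of 0.65 against 0.01 over all genes tested, and this sign rested on 1 tumor. Without sgCda 2, the log2 fold change was below 0 for all 8 genes (median −1.05), from −0.10 for Car3 to −2.30 for Lep, and 1 gene, Lep, passed at an unadjusted p under 0.05 (edgeR adjusted p = 0.9995). With limma-voom, which works on log values, 2 of 8 genes were above 0 with all 10 tumors (median −0.14). The 95% interval for Adipoq spanned −1.46 to 2.62, so the 5 tumors per group left both a fall and a rise of that size within the error.

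**Figure D2:**
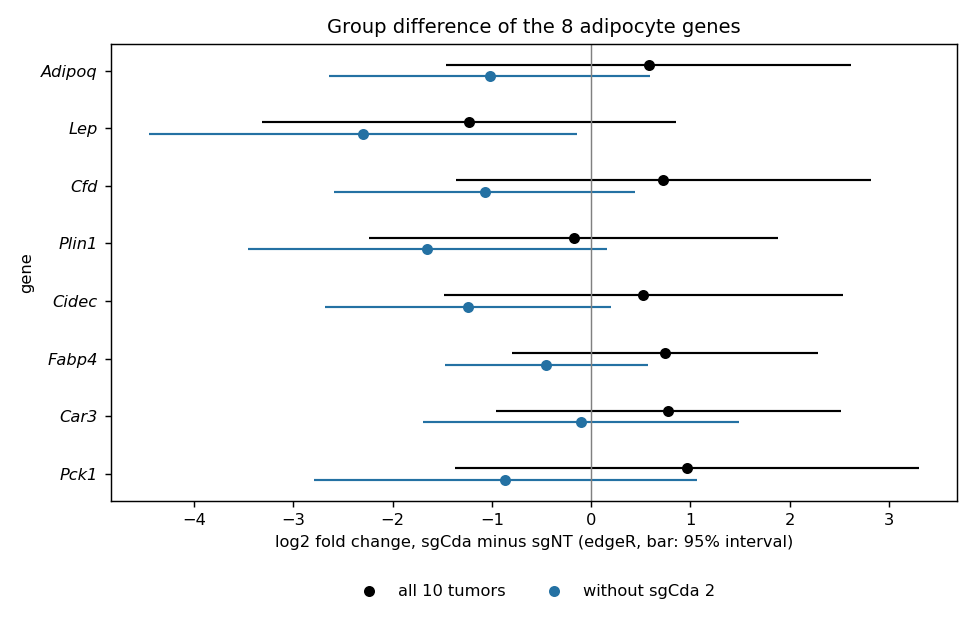
The log2 fold change (sgCda minus sgNT) of each adipocyte gene from edgeR, with 95% intervals, for all 10 tumors (black) and without sgCda replicate 2 (blue). All black intervals include 0, and every blue point lies below 0.

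The spread within groups was large for all 8 genes. Their biological coefficient of variation, the part of the spread beyond counting noise as edgeR estimates it, was 0.732 (Fabp4) to 1.07 (Pck1), against a common value of 0.227, which placed them between the 98.3rd and 99.5th percentile of all genes tested. In sgNT tumors the ratio of SD to mean was 36.5% for Fabp4, 66.1% for Adipoq and 122.7% for Lep, and in sgCda tumors it was 129.0%, 151.7% and 117.9%.

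Although they did not separate the groups, the 8 genes moved together from tumor to tumor. Across the 10 tumors, log2 CPM of Adipoq correlated with Cidec (Pearson r = 0.98, Spearman rho = 0.98), Cfd (0.97, 0.90), Pck1 (0.94, 0.89), Fabp4 (0.94, 0.88), Plin1 (0.93, 0.93), Car3 (0.89, 0.82) and Lep (0.85, 0.95). By permutation tests with 100000 resamples, adjusted over the 15 relations of Adipoq that were computed, p for r ranged from 0.00015 for Cidec, where the raw p of 1e-05 is the smallest the resamples can give, to 0.00403 for Lep. For rho the adjusted p ranged from 0.00045 for Cidec to 0.0121 for Car3. After the 2 tumors farthest from the median of Adipoq (sgCda 2 and sgNT 5) were left out, r was 0.76 (Car3) to 0.97 (Cidec). Over those 8 tumors Car3 no longer passed the threshold (permutation test, adjusted p = 0.0524), and the other 6 genes did. Log2 CPM of Adipoq ran from 0.312 in sgNT 5 to 5.48 in sgCda 2, with gaps, such as that between sgCda 2 and the next tumor, sgNT 2, at 3.74. Whether the tumors form separate clusters was not tested, and r was not computed within the groups, which hold 5 tumors each. Over all 28 pairs of the 8 genes r ranged from 0.69 (Car3 with Plin1) to 0.98, with a median of 0.88.

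**Figure D3:**
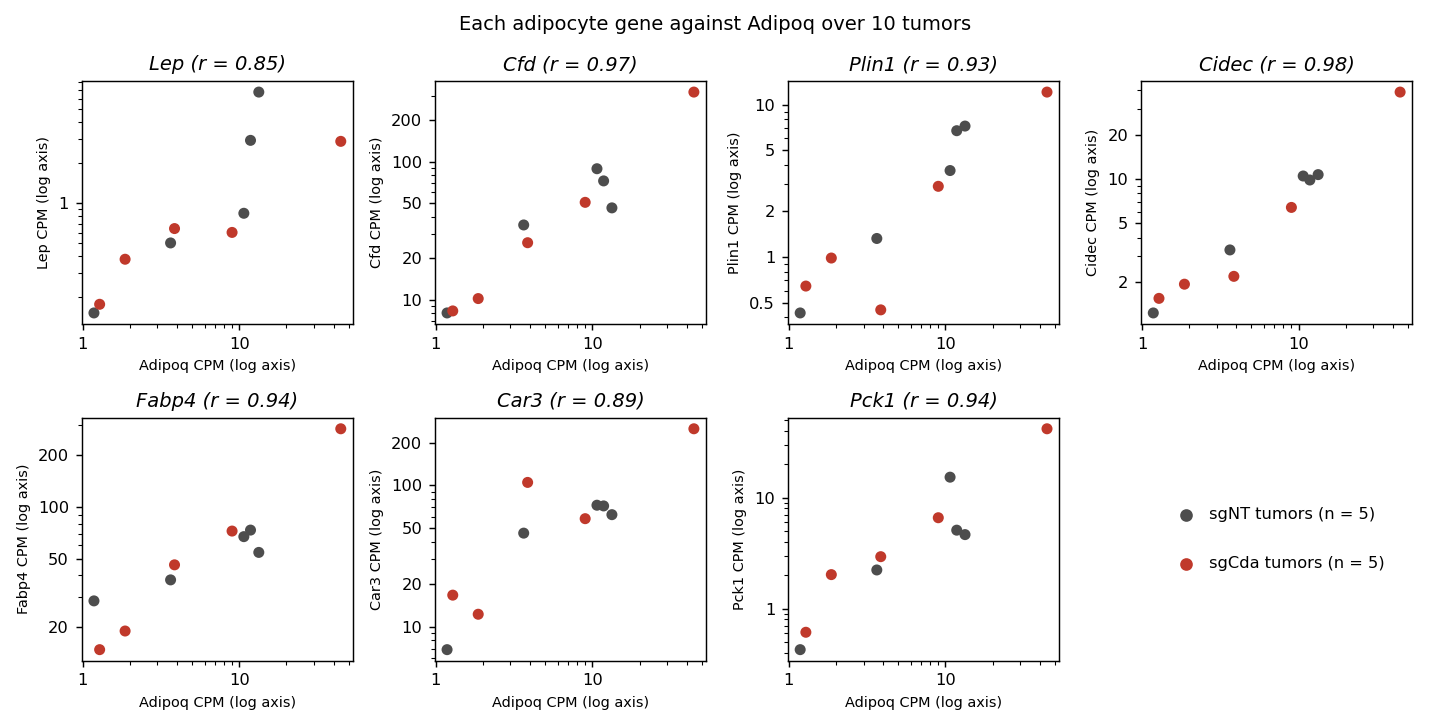
CPM of each of the other 7 adipocyte genes against CPM of Adipoq (both log axes) in 5 sgNT (gray) and 5 sgCda (red) tumors, with Pearson r of log2 CPM. Points of both groups lie along the same rise, and r is highest for Cidec at 0.98 and lowest for Lep at 0.85.

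Ranked by r with Adipoq among the other 15298 genes tested, Cidec was in place 2, Cfd in 6, Pck1 in 17, Fabp4 in 18, Plin1 in 22, Car3 in 35 and Lep in 42. Only 61 genes (0.399%) had r over 0.8, and the median r over all genes was 0.01. The 10 genes outside the list with the pattern most like Adipoq were Acvr1c (r = 0.98), a receptor of the TGF-beta family known in fat cells, Retn (0.98), which encodes resistin, Bche (0.98), Adrb3 (0.98), the beta-3 adrenergic receptor, Adora1 (0.97), Cdo1 (0.97), Nnat (0.96), Smoc1 (0.95), Tmem45b (0.95) and Glb1l2 (0.95). Retn, listed here because of its r with Adipoq, was at 4.65, 3.76, 3.97, 1.89 and 0.478 CPM in sgNT tumors 1 to 5. Its level in sgCda tumors 1 to 5 was 0.642, 22.2, 1.60, 5.42 and 1.01 CPM. This ranking over 10 tumors is a description, in which all genes share each tumor's library and depth.

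Relative to Adipoq in the same tumor, the other genes differed in how constant they were. The ratio of Cidec counts to Adipoq counts stayed between 0.565 and 1.21, a span of 2.13-fold, and that of Cfd between 3.48 and 9.59 (2.75-fold). Lep varied most, by 7.79-fold. Its ratio was 0.505 in sgNT 2 (95% counting interval 0.428 to 0.595) and 0.249 in sgNT 1 (0.197 to 0.314), against 0.0648 in sgCda 2 (0.0532 to 0.0788) and 0.0669 in sgCda 4 (0.0412 to 0.109). In sgNT 3 it was also low, at 0.0783 (0.0530 to 0.116), so the ratio did not follow the group.

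Pck1 showed another order. Its ratio to Adipoq was 1.43 in sgNT 3 (1.25 to 1.64) and 1.08 in sgCda 5 (0.763 to 1.54), against 0.348 in sgNT 2 (0.289 to 0.420) and 0.362 in sgNT 5 (0.209 to 0.626). The sgNT 2 tumor thus had the highest ratio for Lep and the lowest for Pck1, Fabp4 (4.09), Car3 (4.65) and Cfd (3.48). Plin1 had its highest ratio, 0.571, in sgNT 1 and its lowest, 0.116, in sgCda 3 (0.0695 to 0.194).

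For Fabp4 and Car3, which cells other than fat cells also express, the highest ratios were in different tumors. Fabp4 reached 24.1 counts per Adipoq count in sgNT 5 (18.0 to 32.2), the tumor lowest in Adipoq, against 6.41 in sgCda 2 (6.09 to 6.75). Car3 reached 27.1 in sgCda 3 (22.9 to 32.1), 13.0 in sgCda 1 and 12.6 in sgNT 4, and lay between 4.65 and 6.75 in the other 7 tumors. Those 3 tumors also had the highest summed level of 12 skeletal muscle genes, at 2752 CPM in sgCda 3, 678.4 CPM in sgNT 4 and 673.4 CPM in sgCda 1, against 5.86 to 456.5 CPM in the others. The next in muscle level, sgNT 3 (456.5 CPM) and sgCda 2 (395.0 CPM), had Car3 ratios of 6.75 and 5.63. The list was not chosen to mark slow muscle. All muscle genes except Tnnc2, which had 6 counts over all tumors, passed the filter. The part of muscle in the Car3 level, and of endothelium or macrophages in the Fabp4 level, was not tested.

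**Figure D4:**
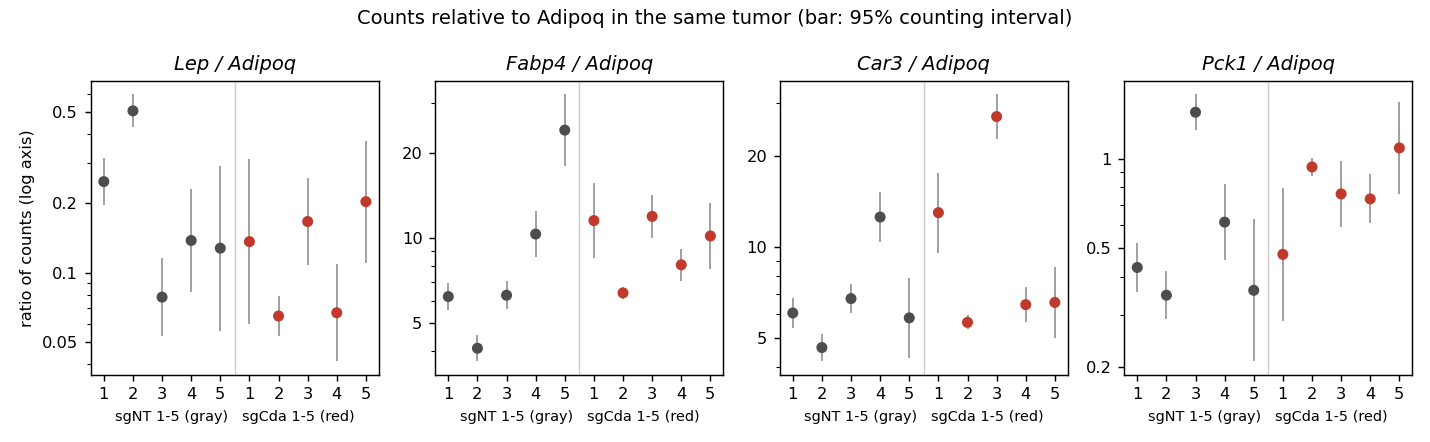
Counts of Lep, Fabp4, Car3 and Pck1 divided by counts of Adipoq in the same tumor (log axis), with 95% counting intervals, for sgNT (gray) and sgCda (red) tumors. Lep is highest in sgNT 2 (0.505), Fabp4 in sgNT 5 (24.1), Car3 in sgCda 3 (27.1) and Pck1 in sgNT 3 (1.43).

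Other genes of fat cell metabolism were taken from 8 lists of 70 genes, of which 63 were tested. Of these, 0 were called at an adjusted p under 0.05, 1 passed at an unadjusted p under 0.05 (beside 2.50% of all genes), 37 lay above 0 and 26 below, and the median log2 fold change was 0.05. The 1 gene was Prdm16, a transcriptional regulator of brown and beige fat, at 0.911 to 1.11 CPM among sgNT and 1.30 to 2.38 CPM among sgCda tumors (log2 fold change 0.66, edgeR adjusted p = 0.9996), and its groups did not overlap, as for 1 of the 63 genes and 0.601% of all genes tested. Its r with Adipoq was −0.04, and it was highest in sgCda 3. With r over 0.8 taken as close to Adipoq, 12 of the 63 genes were close. All 12 had their highest level in sgCda 2. Adipoq was also highest there, so choosing genes by r with Adipoq favors this, and it is no separate result. Genes named from here on that are neither among the 3 most abundant of their list nor named above were picked after their values were seen.

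Among adipokines and secreted factors, 4 of 7 genes tested were close to Adipoq (Retn, Nnat, Rbp4 with r = 0.87 and Nrg4 with r = 0.84). The most abundant of that list were not, namely Apln (r = −0.29, 25.6 to 45.9 CPM) and Angptl4 (r = −0.41, 25.4 to 43.9 CPM), both of which many cell types make. Among lipolysis genes 5 of 8 were close, namely Lipe, which encodes hormone-sensitive lipase (r = 0.94, 17.5 to 44.9 CPM), G0s2 (0.89), an inhibitor of adipose triglyceride lipase, the glycerol channel gene Aqp7 (0.84), Adrb3 and Acvr1c. Pnpla2, the gene of adipose triglyceride lipase itself, had r = 0.79 and varied only from 54.4 to 84.4 CPM, and its coactivator Abhd5 had r = −0.45.

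Of the 13 lipid synthesis genes, all tested, 3 had r over 0.8 with Adipoq, and the rest ranged from 0.62 down to −0.13. Thrsp, a lipogenic nuclear protein (r = 0.92, 0.729 to 30.5 CPM), Dgat2, which forms triglyceride (0.89, 3.27 to 15.9 CPM), and Pnpla3 (0.88) were close to Adipoq, whereas the abundant Fasn (r = 0.48, 275.6 to 472.5 CPM), Scd1 (0.62, 270.7 to 921.6 CPM) and Acly (−0.13, 182.4 to 245.3 CPM) were not. No gene of 5 lists reached r of 0.8. In uptake and glucose transport the nearest was Acsl1 (r = 0.78). Lpl, which encodes lipoprotein lipase, had r = 0.72, with 245.3 CPM in sgCda 2 against 48.2 to 115.0 CPM in the others, and Slc27a1 had r = 0.23. In the droplet list, the abundant Cav1 (r = −0.50), Plin2 (−0.14) and Bscl2 (0.14) varied by less than 1.5-fold, unlike Plin1 and Cidec, and Plin4 had r = 0.71.

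The regulators of the fat cell program varied less between tumors than the 8 genes. Pparg, the master regulator of fat cell formation, was at 6.07 to 9.79 CPM in all tumors (r = 0.56), and Cebpa (r = 0.41), Cebpb (0.10) and Srebf1 (0.17), all of which other cells in a tumor express, also had r below 0.8. Ucp1, the uncoupling protein that defines brown fat, had 8 counts over all 10 tumors and Cidea had 36. Dio2 (r = 0.24), Cox7a1 (−0.30) and Ppargc1a (0.09) were not close to Adipoq either. Genes of preadipocytes and stromal progenitors, led by Ly6a (r = 0.63), Pdgfra (0.15) and Icam1 (0.31), held 0 of 7 genes close to Adipoq. Their r differed in sign, with Dpp4 at 0.44, Zfp423 at −0.15, Cd34 at −0.63 and Pi16 at −0.69. The preadipocyte gene Dlk1 had 77 counts in total.

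Of a list of 8 white fat cell markers, 4 are among the genes described here (Adipoq, Plin1, Cidec and Lep), so only the other 4 (Retn, Plin4, Lipe and Pparg) add to the check of the fat cell label. All 8 passed the filter. Of the other 4, Retn and Lipe had r over 0.8 with Adipoq and Plin4 and Pparg did not, and the summed level of all 8 was 49.96 to 124.4 CPM among sgNT and 45.4 to 224.0 CPM among sgCda tumors.

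Levels of other cell types were set beside Adipoq, as tissue taken with a tumor can hold more than fat. No relation of Adipoq with the skeletal muscle list passed the test (r = 0.01, rho = −0.18, adjusted p for r = 0.969), and sgCda 3, with the most muscle RNA (Acta1 at 583.7 CPM, Tnnt3 at 396.5 CPM), had 3.86 CPM of Adipoq. Skin keratinocyte genes gave r = −0.02, but only 2 of 8, Krt10 and Sbsn, passed the filter, and Krt5 and Krt14 had 81 and 72 counts in total. The summed level of all 8 skin genes was 35.9 CPM in sgNT 4 against 4.9 to 9.2 CPM in the other tumors. In sgNT 4, Krt10 was at 13.98 CPM, Krtdap at 5.53 CPM and Lor at 5.34 CPM. Of mammary genes 2 of 9 passed (r = 0.38, adjusted p = 0.392): Csn2 and Csn1s1 were at 0 counts, Csn3 was at 0.392 to 3.13 CPM, and Prlr was at 9.54 CPM in sgCda 2 against 0.253 to 0.957 CPM elsewhere. The lymph node and B cell list, with Cd79a and Cxcl13 as its most abundant genes, had 3 of 8 tested (r = 0.50, adjusted p = 0.205).

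Macrophage genes, led by Lyz2 and C1qb, had r = 0.17 (summed level 4383 to 6806 CPM among sgNT and 4045 to 7345 CPM among sgCda tumors, adjusted p = 0.736). The endothelium list, led by Pecam1 and Cdh5, had r = −0.58 (adjusted p = 0.133) and was lowest in sgCda 2 at 77.6 CPM, where Adipoq and Fabp4 were highest. Fibroblast genes gave the most negative value (r = −0.66, adjusted p = 0.0731, and rho = −0.76, adjusted p = 0.0283), so the rank relation passed the threshold and the linear one did not. Without the 2 farthest tumors r was −0.71, which did not pass the threshold either (permutation test, adjusted p = 0.101). The list was not uniform. Col1a1 (505.5 to 1834 CPM, r = −0.78) and Col3a1 (r = −0.83) were the most opposed to Adipoq, whereas Dcn, the most abundant, had r = 0.25. The cancer epithelium list, led by Krt8 and Krt18, had r = 0.22 (adjusted p = 0.678), but r was −0.45 for Krt8 and −0.29 for Krt18. It was also below 0 for Msln (−0.30) and Krt19 (−0.18), and above 0 for Krt7 (0.49), Epcam (0.40), Muc1 (0.14) and Cdh1 (0.09). The part of each of these cell types in the levels of the fat cell genes was not tested.

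**Figure D5:**
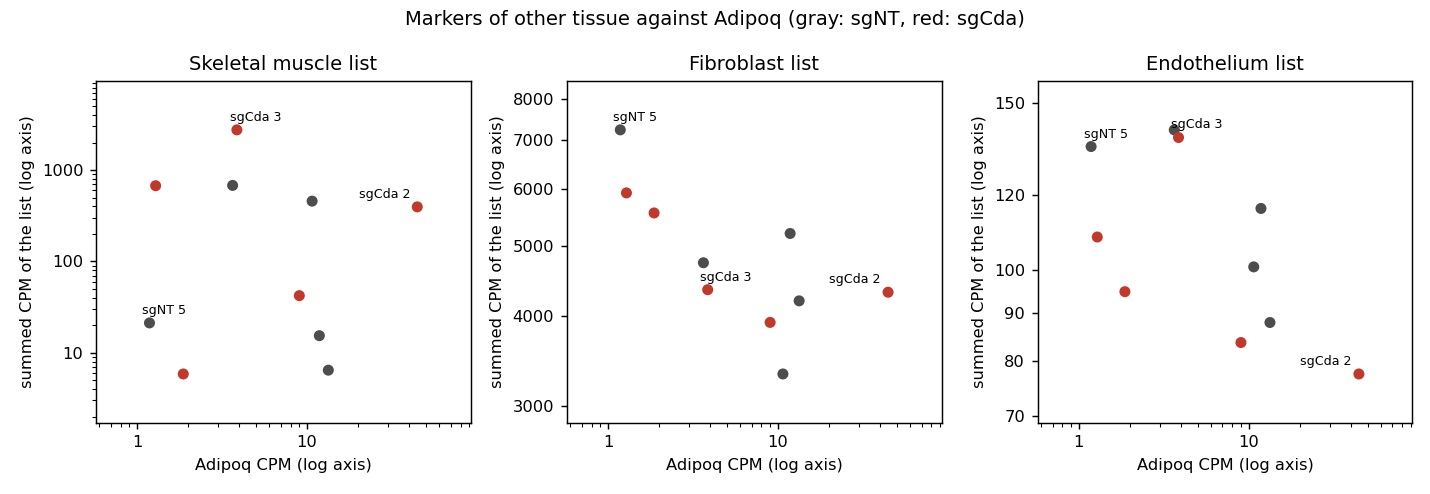
Summed CPM of the skeletal muscle, fibroblast and endothelium lists against CPM of Adipoq (both log axes) in sgNT (gray) and sgCda (red) tumors. The most muscle-rich tumor, sgCda 3 (2752 CPM), has 3.86 CPM of Adipoq, and the fibroblast list is highest in sgNT 5, the tumor lowest in Adipoq.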

How the data were processed

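Polyadenylated RNA of 10 whole tumors was sequenced with a stranded kit. The authors aligned trimmed reads with TopHat and Bowtie to GRCm38 (mm10) and counted reads per Ensembl gene with HTSeq (07.2 in the submitters' processing notes); the deposited values are raw whole-number counts. The HTSeq strand setting and annotation release are not given in the sources used here. HTSeq drops reads shared by several genes, but none of the 8 genes has an exon overlapping another gene in GENCODE M21, from which positions were taken.

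Groups came from sample titles. After 5 HTSeq summary rows were dropped, genes were filtered with filterByExpr (minimum count 10, minimum total 15), scaled by TMM and compared by edgeR's quasi-likelihood test (edgeR 4.0.16, R 4.3.3; standard errors from the fold change and F), with Benjamini-Hochberg adjustment over all 15299 genes tested. The fit was tested on simulated data. Correlations used log2 CPM with a prior count of 2, lists being averaged over genes that passed the filter. DESeq2 1.42.0 and limma 3.58.1 served as alternatives, beside other scalings and filters, a replicate block, exact permutation tests and removal of each tumor. Named genes were the 8 genes, Cda, the 3 most abundant of each fat list and any at an unadjusted p under 0.05, the 10 most like Adipoq, and the 2 most abundant of each cell type list; other genes named in the report were picked after their values were seen. The 8 genes, although their rule holds no measured value, and the lists were chosen with earlier results of these data known. A level of 3 counts equals 0.0754 to 0.106 CPM, and intervals on shares and ratios cover counting error only.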

Additional observations from a re-analysis of the deposited data

Results flagged for a closer look

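In 32 groups of 5 values (8 genes, 2 groups, CPM and log2 CPM), 8 held a tumor far from the other 4. About 1 in 20 groups was taken as the chance level, which was not checked for values as skewed as CPM. The 8 genes move together, so these 8 flags are not independent. On the CPM scale sgCda 2 stood apart from the other sgCda tumors for 7 genes. It had 44.5 CPM of Adipoq against 1.28 to 8.998 in the others, 12.1 CPM of Plin1 against 0.448 to 2.90, 38.9 CPM of Cidec against 1.55 to 6.41, and 285.3 CPM of Fabp4 against 14.8 to 72.5. It also had 2.88 CPM of Lep against 0.175 to 0.644, 319.5 CPM of Cfd against 8.34 to 50.9, and 41.7 CPM of Pck1 against 0.613 to 6.59. On the log2 scale sgCda 2 was not apart for any gene. On that scale sgNT 5 was apart for Car3, with a log2 CPM of 2.80 against 5.52 to 6.18 in the other sgNT tumors.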

How the results depend on the processing

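No alternative called any of the 8 genes or of all genes at an adjusted p under 0.05. At an unadjusted p under 0.05, all genes numbered 830 with a filter of 1 count in any tumor and 747 without sgCda replicate 3, against 382. Leaving out each tumor gave 0 to 1 of the 8 genes and 1 to 4 other fat cell genes at that level, and 2 of the latter passed with the filter of 1 count in any tumor, with DESeq2's Wald test and with the replicate block. Lep kept its sign in all 18 alternatives, while Adipoq, Cidec, Fabp4 and Cfd changed sign in 4 of 19 each, Plin1 in 5, and Car3 and Pck1 in 1. With limma-voom the log2 fold change was −0.083 for Adipoq, −0.19 for Cidec, −0.0062 for Fabp4 and −0.19 for Cfd. As differences of mean log2 CPM these were −0.19, −0.29, −0.020 and −0.24, and two-sided exact permutation p, whose smallest possible value over 252 assignments is 0.00794, was 0.476 (Lep) to 0.992 (Fabp4) over the 8 genes. With the replicate block they were −0.081, −0.23, −0.026 and −0.24. Titles share replicate numbers. Deviations of same-numbered tumors correlated from −0.43 to 0.34, and 2 of 5 tumor pairs correlated best with their own number. No clear pairing was evident, but this check cannot exclude one. The block gave 325 genes at an unadjusted p under 0.05. Leaving out each tumor gave log2 fold changes of −1.02 to 0.87 for Adipoq, −1.65 to 0.17 for Plin1, −1.24 to 0.80 for Cidec, −0.45 to 1.02 for Fabp4, −2.30 to −0.21 for Lep, −0.10 to 1.06 for Car3, −1.07 to 1.03 for Cfd and −0.86 to 1.80 for Pck1. Among these, every change of sign other than that of Plin1 occurred without sgCda replicate 2. For Plin1, the log2 fold change was above 0 without sgNT 1 (0.11), sgNT 2 (0.17), sgCda 1 (0.09), sgCda 3 (0.11) or sgCda 5 (0.05). Without the 2 tumors farthest from the median of Adipoq, r with Car3 was 0.76 and no longer passed the threshold, and r was −0.31 for muscle, −0.033 for mammary epithelium, −0.11 for macrophages and −0.32 for cancer epithelium, all of opposite sign; the cause was not tested, and fewer tumors entered. A filter of 10 counts in every tumor removed Lep. Depth limits mainly Lep, with 6 counts in its lowest tumors.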
